A study of Mus musculus with 24 samples.

Results

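The lysosomal enzymes and the vacuolar proton pump were described here in the choroid plexus of aged mice. The set was a list of 36 genes for lysosomal proteases, glycosidases, sulfatases, lipid-handling proteins, membrane proteins and progranulin, to which every gene symbol of the array's annotation beginning with Atp6v0 or Atp6v1 was added. Of these, 35 listed genes and 19 pump genes had a probe set of their own, which made 54 of the 12393 genes on the array. Arsb, the sulfatase of dermatan sulfate, and Atp6v0c, the main subunit of the proton-conducting ring, were not analysed here. A gene with several probe sets was represented by the brightest of them on average.

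The tissue came from C57BL mice, 78 weeks old, whose genotype was labelled humanized ApoE3-Knockin or humanized ApoE4-Knockin, so that both groups carried a human form of apolipoprotein E. Each genotype was fed either normal chow or a high-fat diet (HFD). There were 6 arrays for each of the 4 combinations, 3 from males and 3 from females. The tissue was fresh-frozen and collected by laser capture microdissection. The labels do not give how regions were chosen or which animal an array came from. A p-value here therefore measures sample-to-sample spread, which may be technical, and the number of arrays limits the precision. In such tissue, fewer cells of a type and less RNA per cell cannot be told apart.

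Lysosomes break down proteins, lipids and sugar chains that reach them from the cell surface and from the cytosol by autophagy. Their enzymes work at an acidic pH, which the vacuolar ATPase maintains: its cytosolic V1 part splits ATP, and its membrane-bound V0 part carries the protons. The choroid plexus epithelium secretes cerebrospinal fluid and takes up material from it, and many lysosomal genes share a short E-box sequence in their promoters that is read by TFEB and related factors.

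That sequence was searched in the promoters of the genes, from 250 bases before to 50 after each gene's start (RefSeq, GRCm38.p6), which were matched by gene ID for 45 of the 54 genes. TCACGTGA, which reads the same on both strands, was found in 7 of the 45 promoters (15.6%) and in 2.24% of the 6750 promoters of tested genes. The shorter TCACGTG, searched on both strands and contained in the first motif, was found in 14 (31.1%) against 7.1%, and its core CACGTG in 15 (33.3%) against 11.8%. Windows with this motif are shown for 7 genes whose signal differed between the genotypes in a comparison below, and for Lamp1, which holds 4 copies. Capitals mark CACGTG with a T before it or an A after it, and positions are counted from the start that the promoter table uses. That start is the outer end of the gene in the same annotation for 32 of the 45 genes and lies inside it for 13. Among those shown it lies 443 bases inside for Atp6v1a, whose window is therefore within the gene's full extent, and 4 bases inside for Naglu and Atp6v0b.
Gla (chrX:134601181-134601245, minus strand, 240 to 176 bases before the start): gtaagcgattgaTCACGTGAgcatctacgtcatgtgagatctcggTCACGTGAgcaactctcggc
Mcoln1 (chr8:3500435-3500492, plus strand, 84 to 27 bases before the start): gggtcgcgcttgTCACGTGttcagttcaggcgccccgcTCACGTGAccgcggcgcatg
Naglu (chr11:101070008-101070039, plus strand, 86 to 55 bases before the start): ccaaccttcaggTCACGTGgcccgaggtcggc
Sgsh (chr11:119355521-119355552, minus strand, 42 to 11 bases before the start): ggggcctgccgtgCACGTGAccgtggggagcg
Arsa (chr15:89477425-89477453, minus strand, 29 to 1 bases before the start): ttcaactcagtgTCACGTGttgtctgctc
Atp6v0b (chr4:117887330-117887378, minus strand, 49 to 1 bases before the start): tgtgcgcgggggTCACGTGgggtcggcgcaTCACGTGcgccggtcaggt
Atp6v1a (chr16:44139372-44139403, minus strand, 144 to 113 bases before the start): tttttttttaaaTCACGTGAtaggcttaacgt
Lamp1 (chr8:13159087-13159160, plus strand, 74 to 1 bases before the start): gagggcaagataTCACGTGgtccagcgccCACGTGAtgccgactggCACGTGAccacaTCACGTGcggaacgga

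A match is a description of these letters only. Of the 14 genes with TCACGTG, 1 was higher and 4 were lower in ApoE4 than in ApoE3 mice on HFD by the test used below, and of the 28 tested genes with a promoter without it, 3 were higher and 3 lower. On chow the counts were 0 higher and 2 lower of 14, and 0 higher and 3 lower of 28. Over all tested genes 10.8% were higher and 17.1% lower on HFD, and 4.14% and 5.6% on chow. The counts are small, and a link between the motif and the calls was not tested.

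The labelled tissue was checked against its markers. Transthyretin (Ttr), the main secreted protein of choroid plexus epithelium, was called Present on 24 of 24 arrays with signals from 13080 to 25450, and 0 of 20 epithelial markers were Absent on all arrays. The values are array intensities that the authors scaled to a trimmed mean of about 500.2 per array. Of the 54 genes, 51 passed the filter of a Present call on at least 6 of 24 arrays, as did 8261 genes in all. Ctsk was Present on 16 arrays, Atp6v0a1 on 19, Atp6v1e2 on 21, and the other 48 on all 24. The 3 that failed were the pump genes Atp6v0a4, Atp6v1b1 and Atp6v1c2, which were Absent on all 24 arrays.

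Signals were compared as log2(signal + 16) with limma, in a model of group means that also held sex. A gene passed at an adjusted p under 0.05 over all 8261 genes, and fold changes are on the log2(signal + 16) scale. The within-group SD of the 51 genes had a median of 0.126 on the log2 scale, from 0.0683 for Ppt1 to 0.349 for Ids, beside a median of 0.176 over all tested genes.

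On chow, 5 of the 51 genes differed between the genotypes, and all 5 were lower in ApoE4 mice. They were Idua, Naglu and Sgsh, which break down heparan sulfate, Neu1, a sialidase, and Gm2a, the activator protein that presents GM2 ganglioside to hexosaminidase. Over all tested genes 9.74% passed in this comparison, 4.14% higher and 5.6% lower, so the 5 of 51 lay near the share of all genes. The median difference of the 51 genes was -0.02, as was that of all genes (-0.02). Of the 51, 23 lay above 0 and 28 below, beside 3758 and 4503 of all tested genes.

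On HFD, 12 of the 51 genes differed, 5 higher and 7 lower in ApoE4 mice. Higher were the proteases Ctsl, Ctsz and Ctsc, the galactosidase Gla and the ceramidase Asah1. Lower were Naglu, Idua, the sulfatase Arsa, the saposin precursor Psap, the channel Mcoln1 and the pump subunits Atp6v0a1 and Atp6v0b. Over all tested genes 27.9% passed, 10.8% higher and 17.1% lower. The median difference was -0.03, beside -0.05 for all genes. After quantile normalization of the arrays the split was 3 higher and 11 lower (27.5% of the 51, where 19.5% of all tested genes passed, 9.64% higher and 9.82% lower). With each array shifted to the same median it was 6 and 5 (21.6%, beside 15.0% higher and 11.8% lower of all tested genes). The members' share thus lay below that of all genes as deposited and above it after quantile normalization.

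Naglu and Idua passed on both diets, 2 of the 51 genes, beside 488 of all 8261 tested genes. The sign of the difference was the same on both diets for 39 of the 51 genes (76.5%), beside 74.0% of all tested genes, and the diets do not share arrays. Averaged over the diets, 18 of the 51 genes passed, 6 higher and 12 lower, where 38.1% of all tested genes passed, 14.6% higher and 23.5% lower. This split turned with the mean signal of each array's hybridization control probe sets as a covariate, to 8 higher and 4 lower (23.5%, beside 33.5% of all tested genes). Without the 4 arrays of lowest control signal it was 9 and 8 (33.3%, beside 35.3%). All 4 came from ApoE4 mice (chow replicate 5 and HFD replicates 2, 5 and 6), so only the ApoE4 groups lost arrays.

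**Figure D1:**
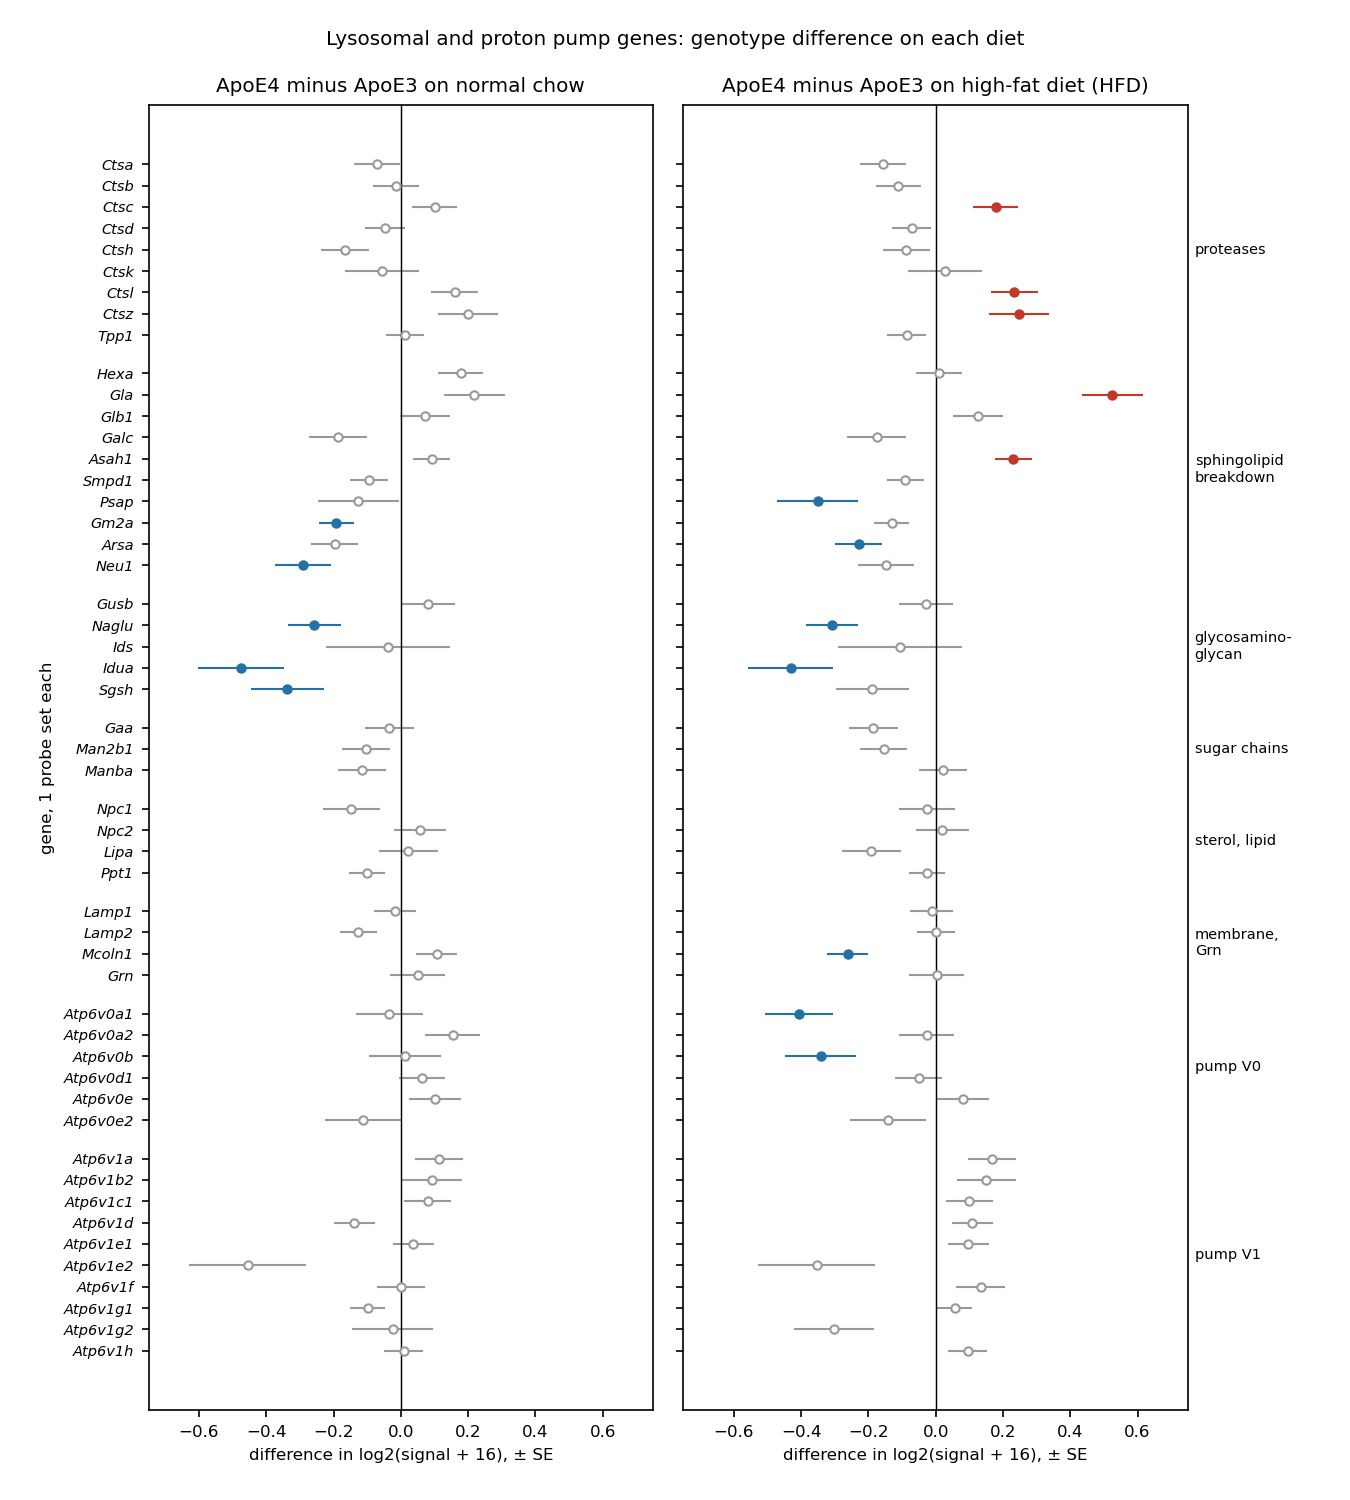
Difference between ApoE4 and ApoE3 mice in log2(signal + 16) on chow (left) and on HFD (right) for the 51 tested genes, ordered by role. Points are the fitted differences and bars their standard errors (6 arrays a group), with filled red points for genes that passed as higher, filled blue for lower and open grey for the rest. On chow 5 genes are filled, all blue, and on HFD 5 are red and 7 blue.

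Among the enzymes of glycosaminoglycan breakdown, 3 of 5 were lower in ApoE4 mice on chow, where 5.6% of all tested genes were, and 2 of 5 on HFD, where 17.1% were, with none higher. Naglu, the N-acetylglucosaminidase of heparan sulfate, had a lowest, median and highest signal of 444, 459 and 577 on the 6 ApoE3 arrays on chow and of 355, 380.4 and 455 on the 6 ApoE4 arrays. On HFD the same values were 496, 539 and 629.9 in ApoE3 and 403, 442 and 465 in ApoE4 mice. On chow 5 of 6 ApoE4 arrays lay below every ApoE3 array, and on HFD the groups did not overlap. The log2 difference was -0.26 ± 0.08 (SE) on chow (1.2-fold lower, adjusted p = 0.0347) and -0.31 ± 0.08 (SE) on HFD (1.24-fold lower, adjusted p = 0.00553).

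Idua, the iduronidase of heparan and dermatan sulfate, read 464, 583 and 773 in ApoE3 and 369, 396 and 549.9 in ApoE4 mice on chow. On HFD it read 465, 649 and 757 and 368, 460.0 and 584. The groups overlapped on both diets, with 5 of 6 ApoE4 arrays below every ApoE3 array on chow and 3 of 6 on HFD. Idua was 1.39-fold lower on chow (log2 difference -0.47 ± 0.13 (SE), adjusted p = 0.0204) and 1.35-fold lower on HFD (-0.43 ± 0.13 (SE), adjusted p = 0.0149). A second probe set of Idua, 1449230_at, was lower as well, by 0.40 ± 0.13 (SE), adjusted p = 0.0502 on chow and by 0.39 ± 0.13 (SE), adjusted p = 0.0268 on HFD.

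Sgsh removes N-linked sulfate from heparan sulfate. Its signal on chow was 194, 219 and 238 in ApoE3 mice and 138, 181 and 192 in ApoE4 mice, without overlap. The difference was -0.34 ± 0.11 (SE), or 1.26-fold, with an adjusted p of 0.0461. On HFD the values were 167, 214 and 257 and 155, 177 and 245. These overlapped, and the difference of -0.19 ± 0.11 (SE) did not pass (adjusted p = 0.195).

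The other enzymes of this role did not pass on either diet. Gusb, the beta-glucuronidase, differed by 0.08 ± 0.08 (SE) on chow and -0.03 ± 0.08 (SE) on HFD. Ids, the iduronate sulfatase, differed by -0.04 ± 0.18 (SE) and -0.11 ± 0.18 (SE), with the widest within-group spread of the 51 genes. On chow the Idua call was lost without ApoE3 replicate 6 or ApoE4 replicate 4 (adjusted p up to 0.0536), and the Naglu call without ApoE3 replicate 1 or 2 or ApoE4 replicate 1, 2, 3 or 4 (up to 0.0988). In 16 other settings (another scaling, filter, model term, covariate or choice of probe sets or arrays), the chow call held in 13 for Idua (adjusted p up to 0.0831) and in 10 for Naglu (up to 0.118), and the HFD call in 13 for Idua (up to 0.155) and in 15 for Naglu (up to 0.0972). The Sgsh call was lost without any one of 14 arrays (up to 0.126), and Sgsh passed in 5 of 16 other settings, with adjusted p from 0.0368 to 0.186.

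Among the 10 genes of glycosphingolipid and sphingomyelin breakdown, 2 were lower on chow (5.6% of all tested genes), and on HFD 2 were higher and 2 lower (10.8% and 17.1% of all tested genes). The enzyme with the smallest adjusted p of all 51 genes on HFD was Gla, the alpha-galactosidase that removes the terminal galactose of globotriaosylceramide. Its signal on HFD was 179, 187 and 249 in ApoE3 and 258, 297 and 333 in ApoE4 mice, without overlap. Gla was 1.44-fold higher in ApoE4 mice (0.53 ± 0.09 (SE), adjusted p = 0.000256). On chow it read 199, 234 and 270.4 and 242, 278 and 312, with overlap, and the difference of 0.22 ± 0.09 (SE) did not pass (adjusted p = 0.119).

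Asah1, the acid ceramidase, splits ceramide into sphingosine and a fatty acid. On HFD it read 2226, 2333 and 2556 in ApoE3 and 2464, 2798 and 2955 in ApoE4 mice, and all but 1 ApoE4 array exceeded every ApoE3 array. It was 1.17-fold higher in ApoE4 mice (0.23 ± 0.06 (SE), adjusted p = 0.00381). On chow the difference was 0.09 ± 0.06 (SE) and did not pass (adjusted p = 0.278). Gla passed in 16 of 16 other settings on HFD and Asah1 in 15 of 16.

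Psap encodes the precursor of the saposins, which lift lipids towards these enzymes. Its signal on HFD was 11909, 13470.3 and 19929 in ApoE3 and 8460.4, 11575 and 14216 in ApoE4 mice. Within ApoE3, replicates 1 and 6 stood above the other arrays of that group, and 4 of 6 ApoE4 arrays lay below every ApoE3 array. Psap was 1.28-fold lower in ApoE4 mice (-0.35 ± 0.12 (SE), adjusted p = 0.0331). The call was lost without ApoE3 HFD replicate 1 or 6 or ApoE4 HFD replicate 3, 4 or 5 (differences from -0.42 to -0.25 over all 24 arrays left out in turn, adjusted p up to 0.0871). In 16 other settings the Psap call held in 9 (adjusted p up to 0.436).

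Arsa, which removes sulfate from sulfatide, read 461, 494 and 515 on HFD in ApoE3 and 379, 407 and 467 in ApoE4 mice. All but 1 ApoE4 array lay below every ApoE3 array. Arsa was 1.17-fold lower (-0.23 ± 0.07 (SE), adjusted p = 0.018), and on chow it differed by -0.20 ± 0.07 (SE) (adjusted p = 0.0717). The HFD call of Arsa held in 10 of 16 other settings, with adjusted p from 0.0128 to 0.393.

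Gm2a read 3335, 3662 and 3779 on chow in ApoE3 and 3065, 3116 and 3429 in ApoE4 mice, with 5 of 6 ApoE4 arrays below every ApoE3 array. It was 1.14-fold lower (-0.19 ± 0.05 (SE), adjusted p = 0.0231), and a second probe set, 1416188_at, differed by -0.02 ± 0.11 (SE), adjusted p = 0.911. The Gm2a call was lost without ApoE4 chow replicate 1 (adjusted p = 0.0563, the highest over the 24 arrays left out in turn). Neu1, the sialidase of glycolipids and glycoproteins, read 383, 422 and 443 on chow in ApoE3 and 301, 332 and 395 in ApoE4 mice. Here too 5 of 6 ApoE4 arrays lay below every ApoE3 array, and Neu1 was 1.22-fold lower (-0.29 ± 0.08 (SE), adjusted p = 0.0252). In 16 other settings the chow call held in 10 for Gm2a (adjusted p up to 0.27) and in 12 for Neu1 (up to 0.0723). The Neu1 call was lost without ApoE3 replicate 2 or ApoE4 replicate 2, 3 or 4 (adjusted p up to 0.0634). On HFD Gm2a differed by -0.13 ± 0.05 (SE) and Neu1 by -0.15 ± 0.08 (SE), and neither passed. After quantile normalization, however, Gm2a passed on HFD (-0.19, adjusted p = 0.00918). It passed there also without ApoE3 HFD replicate 2 or 5 or ApoE4 HFD replicate 4 (adjusted p up to 0.0496).

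The other 4 genes of sphingolipid breakdown passed on neither diet with all arrays and the signals as deposited. Hexa, the alpha chain of hexosaminidase, differed by 0.18 ± 0.07 (SE) on chow and 0.01 ± 0.07 (SE) on HFD. Glb1, the beta-galactosidase, differed by 0.07 ± 0.07 (SE) and 0.13 ± 0.07 (SE), and Smpd1, the acid sphingomyelinase, by -0.09 ± 0.06 (SE) and -0.09 ± 0.06 (SE). Hexa passed on chow without ApoE4 replicate 5 (0.23, adjusted p = 0.0215), and Smpd1 on HFD after quantile normalization (-0.14, adjusted p = 0.0442). Galc, which degrades the myelin lipid galactosylceramide, read 401, 525 and 583 on chow in ApoE3 and 364, 457 and 481 in ApoE4 mice, and 460.2, 524 and 585 and 395, 444 and 559.7 on HFD. It overlapped on both diets and passed only when the diets were averaged (-0.18 ± 0.06 (SE), adjusted p = 0.0217). Galc passed there in 11 of 15 other settings and differed by -0.03 after quantile normalization (adjusted p = 0.794).

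**Figure D2:**
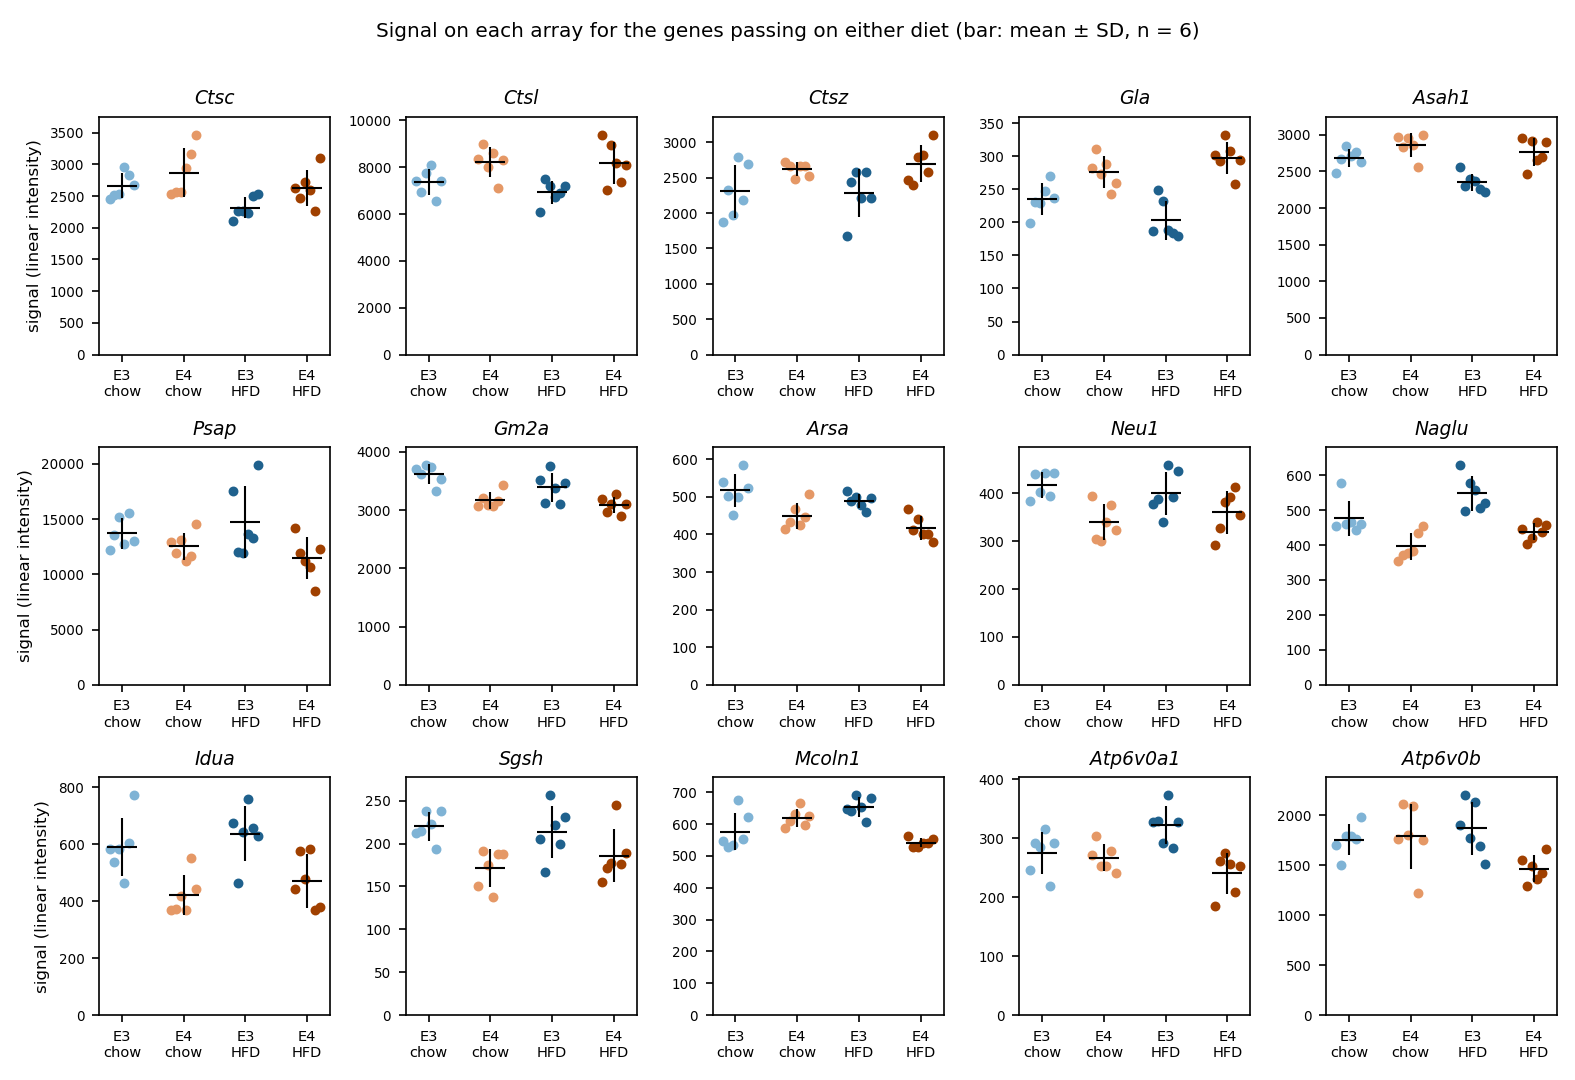
Signal on each array (linear intensity, axes from 0) for the 15 genes that passed on chow or on HFD, in 4 groups of 6 arrays. Points are arrays in the order of their replicate number, the horizontal bar is the group mean and the vertical bar the SD. On HFD the ApoE4 points of Gla lie above all ApoE3 points, and those of Naglu, Mcoln1 and Atp6v0a1 lie below all ApoE3 points.

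Among 9 proteases, none differed on chow, and 3 were higher in ApoE4 mice on HFD, as were 10.8% of all tested genes. Ctsl, a cysteine endopeptidase, read 6079.5, 7039 and 7478 on HFD in ApoE3 and 7016, 8142 and 9396 in ApoE4 mice. Ctsz, a carboxypeptidase, read 1681, 2327 and 2584 and 2400.4, 2689 and 3109, and Ctsc, the dipeptidyl peptidase that activates granule proteases, 2111, 2262 and 2526 and 2264, 2612 and 3103. For each of the 3 the groups overlapped, and 4 of 6 ApoE4 arrays exceeded every ApoE3 array. The differences were 0.23 ± 0.07 (SE) for Ctsl (adjusted p = 0.0158), 0.25 ± 0.09 (SE) for Ctsz (adjusted p = 0.0401) and 0.18 ± 0.07 (SE) for Ctsc (adjusted p = 0.0468).

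The Ctsl call was lost without ApoE3 HFD replicate 1 (adjusted p = 0.0512, the highest over 24 arrays left out). Ctsl passed in 14 of 16 other settings and Ctsc in 10 (adjusted p up to 0.161 and 0.223). Ctsz passed in 7 of 16 other settings (adjusted p from 0.0179 to 0.788), and was lost without ApoE3 HFD replicate 1, 4 or 6 or ApoE4 HFD replicate 3, 4 or 6 (up to 0.134). Ctsc was lost without any one of 17 arrays (up to 0.126). Other probe sets of Ctsz gave -0.10 ± 0.06 (SE), adjusted p = 0.226 and -0.06 ± 0.09 (SE), adjusted p = 0.646.

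The other proteases gave no call on either diet with all arrays and the signals as deposited. Ctsd, the main aspartic protease, read 9620.4, 10068 and 10436 on HFD in ApoE3 and 8499, 9697 and 10092 in ApoE4 mice, and its 95% interval of the difference was -0.19 to 0.05. Ctsb, a cysteine protease, read 7338, 7837 and 8201 and 6382, 7532 and 7809 with an interval of -0.25 to 0.03, and for Ctsa, the carboxypeptidase that stabilises Glb1 and Neu1, -0.30 to -0.02. After quantile normalization Ctsb (-0.15, adjusted p = 0.0485) and Ctsa (-0.21, adjusted p = 0.0307) passed on HFD. Tpp1, a tripeptidyl peptidase, had an interval of -0.20 to 0.03. Ctsk, the collagen-degrading protease of osteoclasts, read 235, 262 and 287 and 215, 277 and 295. Ctsh, an aminopeptidase, passed only in the average of the diets (-0.13 ± 0.05 (SE), adjusted p = 0.045). That call held in 8 of 15 other settings (adjusted p up to 0.709) and was lost without any one of 14 arrays.

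None of the 3 enzymes of glycogen and glycoprotein sugar chains passed on either diet at the probe set that stood for the gene. Gaa, the acid alpha-glucosidase of glycogen, read 2065, 2263 and 2638 on HFD in ApoE3 and 1813, 2049 and 2134 in ApoE4 mice, with overlap, and differed by -0.18 ± 0.07 (SE) (adjusted p = 0.0594). Gaa did pass on HFD after quantile normalization (-0.24, adjusted p = 0.0228) and with array weights (-0.20, adjusted p = 0.0272). Its second probe set, 1419428_a_at, was lower on HFD, with a difference of -0.42 ± 0.09 (SE), adjusted p = 0.00235. Man2b1, an alpha-mannosidase, differed by -0.16 ± 0.07 (SE) on HFD and passed in the average (-0.13 ± 0.05 (SE), adjusted p = 0.0418, held in 8 of 15 other settings and lost without any one of 11 arrays), and Manba, a beta-mannosidase, read 701, 823 and 916 and 715, 819 and 919.6 and differed by 0.02 ± 0.07 (SE).

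None of the 4 genes of sterol, lipid and acyl chain handling passed on either diet. Npc1 and Npc2 hand cholesterol out of the lysosome. On HFD Npc1 read 277, 309.5 and 356 in ApoE3 and 257, 305 and 359.6 in ApoE4 mice and differed by -0.03 ± 0.08 (SE), and Npc2 read 10612, 11303 and 12098 and 9609, 11714 and 13062 and differed by 0.02 ± 0.08 (SE). The groups overlapped for both. Ppt1, which removes palmitate from proteins, differed by -0.03 ± 0.05 (SE). Lipa, the acid lipase of cholesteryl esters, read 1197, 1332 and 1457 on HFD in ApoE3 and 930.2, 1176 and 1326 in ApoE4 mice, with overlap. Its difference was -0.19 ± 0.09 (SE) (adjusted p = 0.0987) at the probe set that stood for it. Both other probe sets of Lipa were lower in ApoE4 mice on HFD, by 0.70 ± 0.14 (SE), adjusted p = 0.00104 and by 0.49 ± 0.11 (SE), adjusted p = 0.00286, and 1423141_at was lower on chow too (-0.38 ± 0.11 (SE), adjusted p = 0.0292).

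Of 4 genes for membrane proteins and progranulin, only Mcoln1 passed, on HFD. Mcoln1 encodes TRPML1, the cation channel that releases calcium from lysosomes. It read 606, 651 and 692 on HFD in ApoE3 and 527, 540.0 and 562 in ApoE4 mice, without overlap, and was 1.2-fold lower (-0.26 ± 0.06 (SE), adjusted p = 0.0032). On chow it read 529, 551 and 674 and 587, 618.2 and 667, with overlap, and the difference had the other sign (0.11 ± 0.06 (SE), adjusted p = 0.256). The HFD call of Mcoln1 held in 15 of 16 other settings, and not with the brain markers as a covariate (adjusted p = 0.129).

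The membrane glycoproteins and progranulin passed on neither diet. Lamp1, which lines the lysosomal membrane, read 6981, 7299.8 and 7621 on HFD in ApoE3 and 6727, 7378 and 7582 in ApoE4 mice, and the 95% interval of its difference was -0.14 to 0.12. Lamp2, which also serves in chaperone-mediated autophagy, read 7488, 7580.0 and 7889 and 7059, 7439 and 9006 with an interval of -0.11 to 0.11, and for Grn, progranulin, the interval was -0.16 to 0.17. One of 4 probe sets of Lamp2, 1428094_at, was higher in ApoE4 mice on HFD (0.29 ± 0.07 (SE), adjusted p = 0.0063).

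In the membrane-bound V0 part of the pump, 0 of 6 genes differed on chow and 2 were lower in ApoE4 mice on HFD, as were 17.1% of all tested genes. Atp6v0a1, the a1 form of the largest V0 subunit, which is abundant in neurons, read 284, 327 and 374 on HFD in ApoE3 and 185, 255 and 275 in ApoE4 mice, without overlap. It was 1.33-fold lower (-0.41 ± 0.10 (SE), adjusted p = 0.00468). On chow it read 219, 288 and 316 and 241, 263 and 304, with a difference of -0.03 ± 0.10 (SE). The HFD call of Atp6v0a1 held in 16 of 16 other settings (adjusted p from 0.00247 to 0.0463) and without each of the 24 arrays in turn. A probe set Present on 8 arrays, 1460650_at, was lower too (-0.52 ± 0.19 (SE), adjusted p = 0.04), and 1425227_a_at gave -0.06 ± 0.17 (SE), adjusted p = 0.84.

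Atp6v0b encodes a subunit of the proton-conducting ring. It read 1516, 1835 and 2205 on HFD in ApoE3 and 1292, 1460.0 and 1663 in ApoE4 mice, where 4 of 6 ApoE4 arrays lay below every ApoE3 array. It was 1.27-fold lower (-0.34 ± 0.11 (SE), adjusted p = 0.0198), and the call was lost without ApoE3 HFD replicate 4 (adjusted p = 0.0533, the highest over 24 arrays left out). The 3 probe sets of Atp6v0b did not move together. On HFD 1416769_s_at gave -0.18 ± 0.08 (SE), adjusted p = 0.085 and 1425448_x_at 0.01 ± 0.12 (SE), adjusted p = 0.971, and on chow 1425448_x_at was higher (0.41 ± 0.12 (SE), adjusted p = 0.026). Atp6v0b passed on HFD in 13 of 16 other settings, and not with the mean of its 3 probe sets or with the brain markers or hybridization controls as a covariate (adjusted p up to 0.251).

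The other subunits of V0 did not pass on either diet at the probe set that stood for the gene. Atp6v0d1, the collar between the ring and V1, differed on HFD by -0.05 ± 0.07 (SE), and Atp6v0e, a small membrane subunit, read 5664, 5792 and 6347 in ApoE3 and 5227, 6524 and 7098 in ApoE4 mice and differed by 0.08 ± 0.08 (SE). Of the forms of the large subunit, a2 (Atp6v0a2) read 522, 612 and 730.4 in ApoE3 and 518, 631 and 659 in ApoE4 mice on HFD. At this probe set it differed by -0.03 ± 0.08 (SE). The other probe sets of Atp6v0a2 gave -0.25 ± 0.12 (SE), adjusted p = 0.1285 and -0.28 ± 0.11 (SE), adjusted p = 0.0526 on HFD. Both were lower in the average of the diets (-0.24, adjusted p = 0.03 and -0.25, adjusted p = 0.0114). With the mean of its probe sets, Atp6v0a2 passed as lower on HFD (-0.19, adjusted p = 0.0435). The a4 form, known from kidney, was the one Absent on all arrays, with signals of at most 99.4. Atp6v0e2, the second form of the small subunit, read 222, 278 and 321 and 166, 275 and 303 and differed by -0.14 ± 0.11 (SE).

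In the cytosolic V1 part, 0 of 10 genes passed on either diet. On HFD 8 of the 10 differences lay above 0, with a median of 0.10 on the log2 scale. Of all 8261 tested genes 3338 lay above 0 there, with a median of -0.05. On chow 6 of 10 lay above 0, with a median of 0.00, beside 3758 of all tested genes, with a median of -0.02. Atp6v1a, the catalytic subunit, read 4612, 4730.2 and 5104 on HFD in ApoE3 and 4158, 5548 and 5956 in ApoE4 mice, with overlap. Its difference was 0.17 ± 0.07 (SE) on HFD (adjusted p = 0.0789) and 0.11 ± 0.07 (SE) on chow. Without ApoE4 HFD replicate 2 the HFD difference was 0.24 ± 0.06 (SE) and passed (adjusted p = 0.00374). It passed on HFD also with each array shifted to the same median (adjusted p = 0.0344), array weights (0.0148) or the hybridization controls as a covariate (0.0013). Atp6v1a passed in the average of the diets (0.14 ± 0.05 (SE), adjusted p = 0.0296). That call held in 11 of 15 other settings (adjusted p up to 0.571, where the mean of its probe sets gave 0.06) and was lost without any one of 6 arrays (up to 0.0579). The second probe set, 1450634_at, gave 0.04 (adjusted p = 0.58) in the average and 0.01 (adjusted p = 0.927) on HFD. Atp6v1b2, which forms the catalytic ring with it, differed on HFD by 0.15 ± 0.09 (SE), Atp6v1f by 0.13 ± 0.07 (SE) and Atp6v1h, a regulatory subunit, by 0.09 ± 0.06 (SE).

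Where a V1 subunit has more than 1 gene, the forms were set side by side. Atp6v1g1, the widespread G form, read 7466, 8241 and 9019 in ApoE3 and 8009, 8604 and 8957 in ApoE4 mice on HFD and differed by 0.06 ± 0.05 (SE). Atp6v1g2, the neuronal form, read 147, 225 and 241 and 145, 168 and 204 and differed by -0.30 ± 0.12 (SE) (adjusted p = 0.0591), so neither passed. Without ApoE3 HFD replicate 6, however, Atp6v1g2 differed by -0.41 ± 0.11 (SE) on HFD and passed (adjusted p = 0.00991). It passed there also with array weights (adjusted p = 0.025) and with the ratio of 3' to 5' signals (0.0338) or the hybridization controls (0.0458) as a covariate. Of the E forms, Atp6v1e1 read 6281, 6715 and 7192 and 6905, 7194 and 7409 and differed by 0.10 ± 0.06 (SE). Atp6v1e2, known from testis, read 74.5, 108 and 134 and 42.1, 78.6 and 118 on HFD, and 74.3, 142 and 150.1 and 76.2, 89.2 and 104 on chow. It overlapped on both diets and was lower in the average (-0.40 ± 0.12 (SE), adjusted p = 0.0117). After quantile normalization that difference was -0.21 and did not pass (adjusted p = 0.213), and it passed in 14 of 15 other settings. Of the B and C forms, Atp6v1b1 and Atp6v1c2 were Absent on all arrays, with signals of at most 48.0 and 64.3.

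The V1 genes with several probe sets showed how the choice of probe set bears on these counts. Of Atp6v1d, a subunit of the central stalk, both other probe sets were higher on HFD (0.20 ± 0.06 (SE), adjusted p = 0.0182 and 0.43 ± 0.11 (SE), adjusted p = 0.00525), while the one that stood for it gave 0.11 ± 0.06 (SE), adjusted p = 0.187. Of Atp6v1c1, which joins the stalks, 1419546_at was higher on HFD (0.24 ± 0.06 (SE), adjusted p = 0.00476). Of Atp6v1e1, 1449711_at was lower on both diets, with -0.70 ± 0.22 (SE), adjusted p = 0.0481 on chow and -0.68 ± 0.22 (SE), adjusted p = 0.0292 on HFD. Probe-set p-values were adjusted over the 13936 probe sets kept.

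Over all 24 genes with several kept probe sets (63 in all), the differences had mixed signs in 13 genes on chow and in 12 on HFD. Only another probe set than the one that stood for the gene passed for Atp6v0b, Atp6v1e1 and Lipa on chow. On HFD the same held for 7 genes, namely Atp6v1c1, Atp6v1d, Atp6v1e1, Ctsb, Gaa, Lamp2 and Lipa. Mixed signs and such calls were not counted over all tested genes with several probe sets, so these counts have no background beside them. For Ctsb this was 1448732_at (-0.24 ± 0.08 (SE), adjusted p = 0.0296). With the mean of a gene's probe sets, 16 of the 51 genes passed on HFD, 6 higher and 10 lower (31.4%, where 29.3% of all tested genes passed, 10.1% higher and 19.2% lower).

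**Figure D3:**
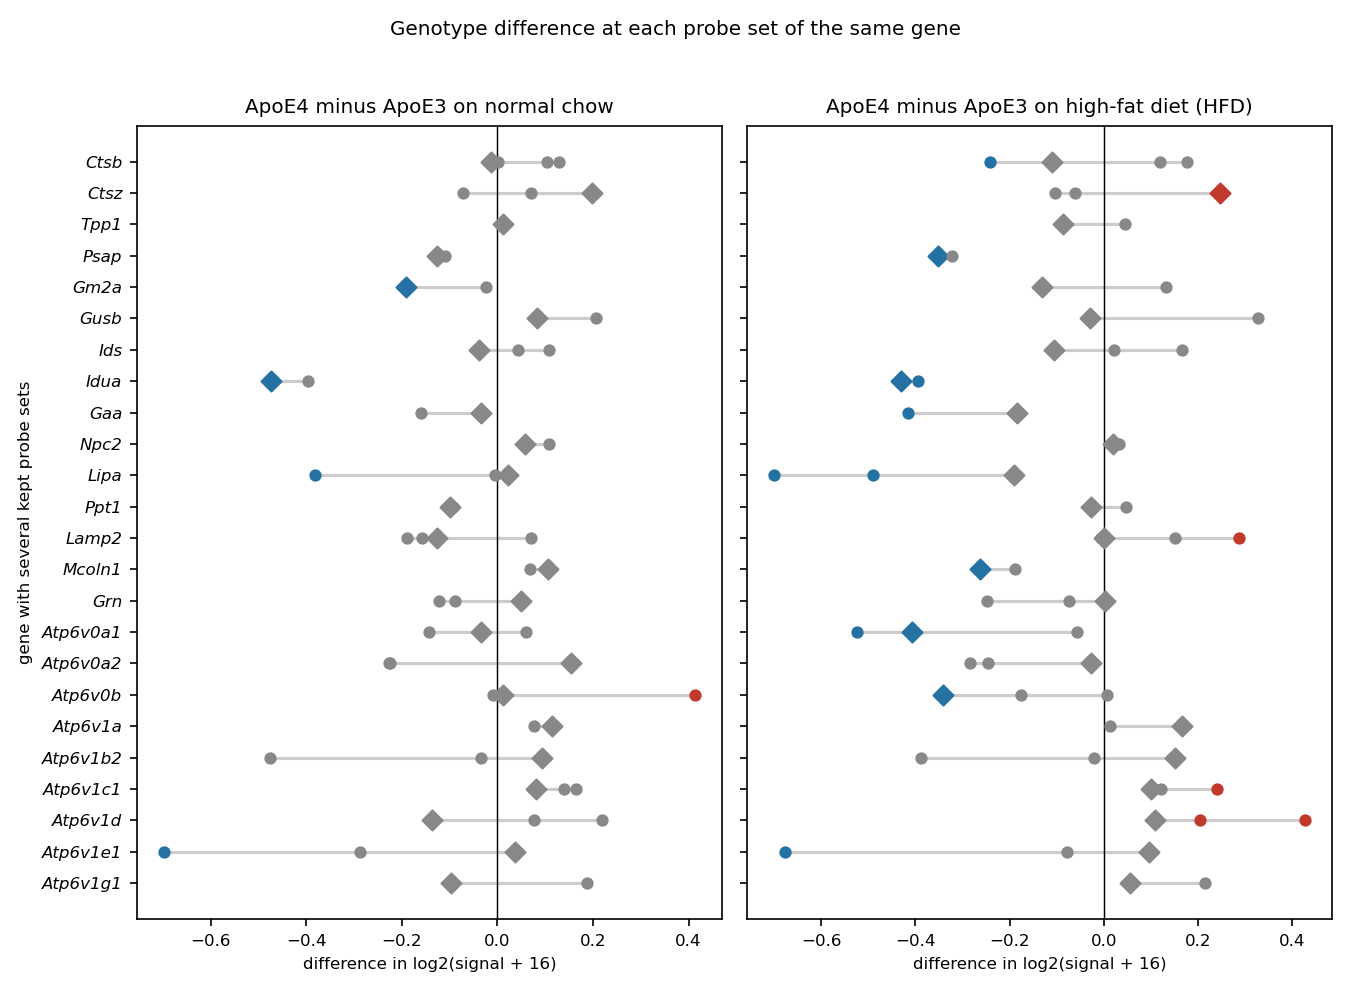
Difference between ApoE4 and ApoE3 mice in log2(signal + 16) at each kept probe set of the 24 genes with more than 1, on chow (left) and on HFD (right). Diamonds are the probe sets that stood for the gene and circles the others, red where the probe set passed as higher, blue as lower and grey where it did not pass, and grey lines join the probe sets of a gene. The 3 probe sets of Lipa on HFD run from -0.70 to -0.19, and both probe sets of Idua lie below -0.35 on both diets.

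Diet was compared within each genotype. In ApoE3 mice 0 of the 51 genes passed with limma between HFD and chow, where 0.23% of all tested genes passed. An unadjusted p under 0.05 was found for 10 of 51, beside 1103 of all 8261 tested genes. The 3 smallest p-values belonged to Asah1, Grn and Atp6v1g2. Asah1 read 2474, 2693 and 2842 on chow and 2226, 2333 and 2556 on HFD, a difference of -0.19 ± 0.06 (SE) (adjusted p = 0.121). Grn read 3272, 3403 and 4349 and 4052, 4107 and 4854, a difference of 0.27 ± 0.08 (SE) (adjusted p = 0.133). Atp6v1g2 read 139, 159 and 185 and 147, 225 and 241, a difference of 0.39 ± 0.12 (SE) (adjusted p = 0.136). The diets overlapped for all 3. With array weights Grn alone passed in this comparison, where 1.3% of all tested genes passed.

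In ApoE4 mice 0 of the 51 genes passed with limma between the diets, as did 0.0% of all tested genes. An unadjusted p under 0.05 was found for 4 of 51, beside 576 of all 8261 tested genes. Mcoln1 read 587, 618.2 and 667 on chow and 527, 540.0 and 562 on HFD, a difference of -0.19 ± 0.06 (SE) (adjusted p = 0.449). These groups did not overlap. Grn differed by 0.22 ± 0.08 (SE) and Atp6v1d by 0.16 ± 0.06 (SE), with adjusted p of 0.472 and 0.48. The diet differences of the 51 genes ran from -0.26 to 0.39 on the log2 scale in ApoE3 and from -0.27 to 0.22 in ApoE4 mice.

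Whether the genotype difference itself depended on diet was tested as an interaction. With limma 0 of the 51 genes passed, as did 0.0% of all tested genes. An unadjusted p under 0.05 was found for 6 of 51, beside 835 of all 8261 tested genes. The smallest p was that of Mcoln1, with an interaction of -0.37 ± 0.09 (SE) (adjusted p = 0.16). Atp6v1d followed with 0.25 ± 0.09 (SE) (adjusted p = 0.312) and Atp6v0a1 with -0.37 ± 0.14 (SE) (adjusted p = 0.375). For Gla it was 0.31 ± 0.13 (SE) (adjusted p = 0.421). The genes that passed on 1 diet and not on the other were therefore not shown to differ between the diets.

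Sex was the third labelled factor, with 12 arrays each. With limma 0 of the 51 genes passed, where 1.28% of all tested genes passed. An unadjusted p under 0.05 was found for 7 of 51, beside 1227 of all 8261 tested genes. Gusb read 348, 446 and 489 in males and 410.4, 506 and 573 in females, a difference of 0.19 ± 0.06 (SE) (adjusted p = 0.105). Ctsc read 2111, 2526 and 2717 and 2231, 2754 and 3471, a difference of 0.16 ± 0.05 (SE) (adjusted p = 0.106), and Smpd1 differed by 0.11 ± 0.04 (SE). The sexes overlapped for each of these. Without ApoE4 HFD replicate 5, Ctsc and Gusb passed. The X-linked genes Gla, Ids and Lamp2 differed by -0.07 ± 0.06 (SE), 0.16 ± 0.13 (SE) and -0.05 ± 0.04 (SE), and none passed.

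**Figure D4:**
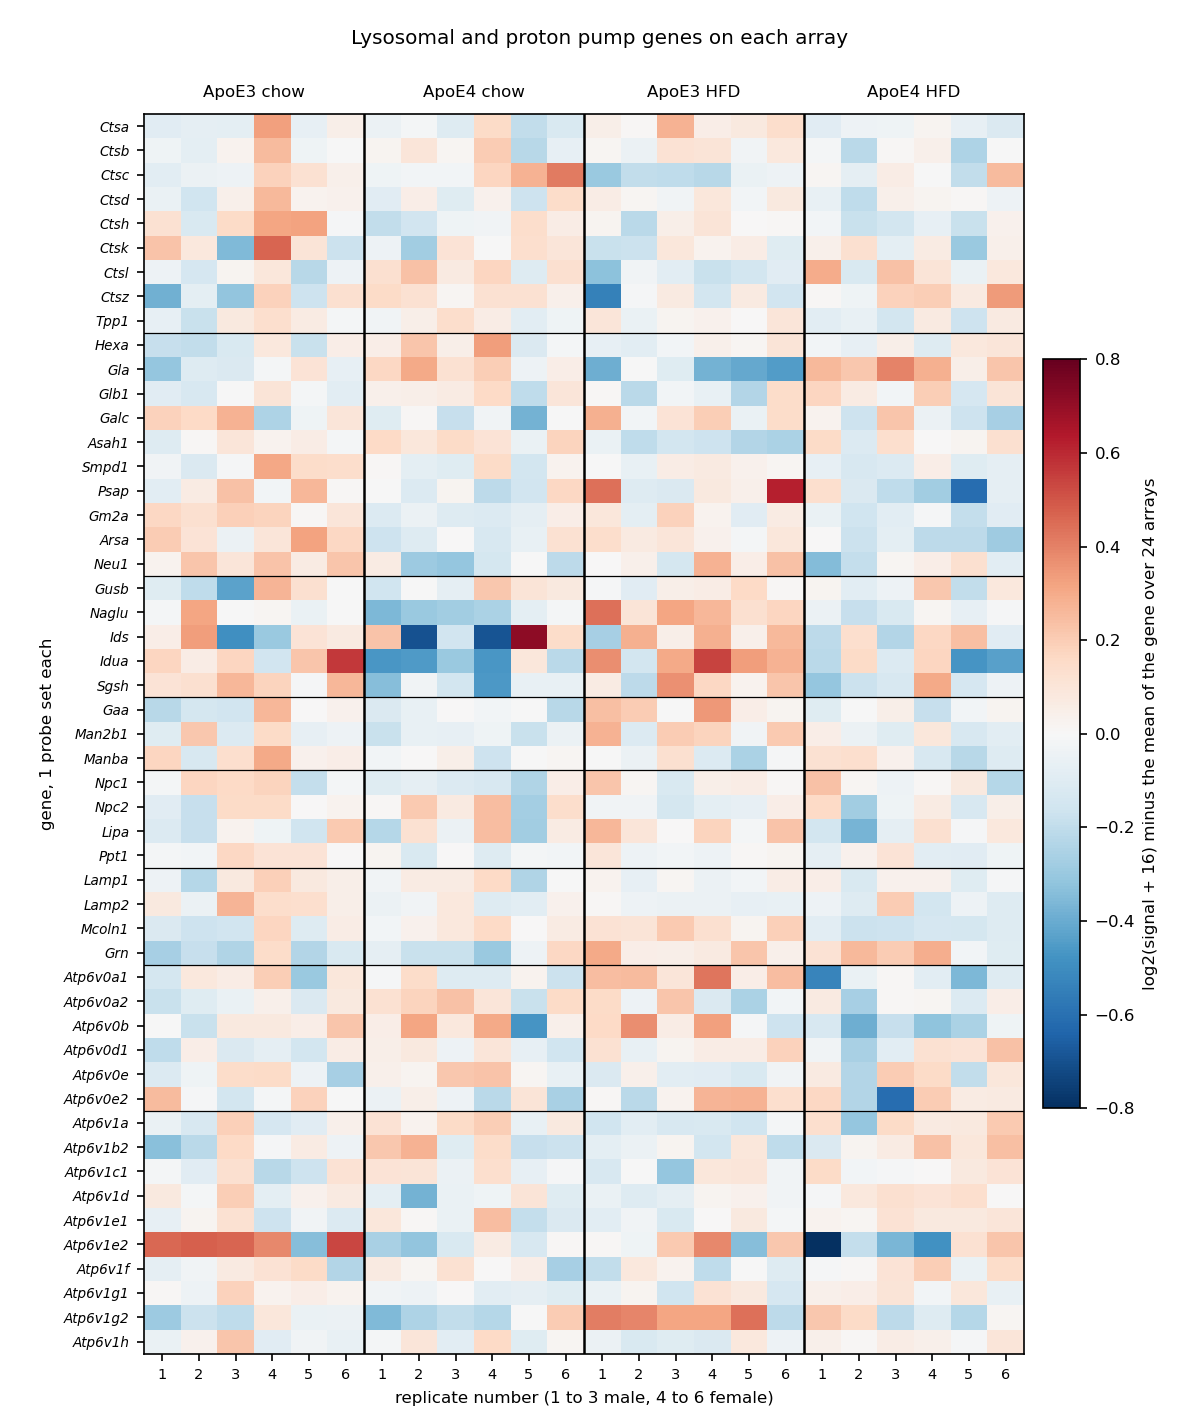
Deviation of log2(signal + 16) from the gene's mean over 24 arrays for the 51 tested genes (rows, by role) on each array (columns, in 4 groups of 6, replicates 1 to 3 male and 4 to 6 female). Red is above the mean and blue below, on a scale from -0.8 to 0.8. The Naglu and Idua rows are mostly blue in both ApoE4 groups and mostly red in ApoE3 on HFD, and the Gla row is red on all ApoE4 HFD arrays.

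Genes around the set were counted from lists of the pathway, members left out. Of 30 other lysosome genes, 1 was higher and 1 lower in ApoE4 mice on chow, and 0 were higher and 5 lower on HFD. The 5 of 30 lower lay near the 17.1% of all tested genes, and the counts of each list below are to be read against 4.14% higher and 5.6% lower of all genes on chow and 10.8% and 17.1% on HFD. The 5 were Ctns, the cystine exporter (-0.55 ± 0.14 (SE), adjusted p = 0.00513), Sort1, a sorting receptor (-0.25 ± 0.06 (SE), adjusted p = 0.00643), Clcn7, a chloride exchanger (-0.41 ± 0.11 (SE), adjusted p = 0.00891), Galns, a sulfatase (-0.34 ± 0.09 (SE), adjusted p = 0.00975), and Tcirg1. Tcirg1 encodes the a3 form of the large V0 subunit under another symbol. It was lower on both diets, with -0.31 ± 0.09 (SE), adjusted p = 0.0347 on chow and -0.25 ± 0.09 (SE), adjusted p = 0.0457 on HFD. The gene higher on chow was the protease legumain, Lgmn (0.19 ± 0.06 (SE), adjusted p = 0.0439).

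Of 9 accessory and assembly genes of the pump, 0 were higher and 1 lower on chow, and 1 was higher and 2 lower on HFD. The higher gene was Oxr1 (0.52 ± 0.07 (SE), adjusted p = 1.85e-05), and the lower ones were Slc4a2, an anion exchanger (-0.33 ± 0.08 (SE), adjusted p = 0.00321), and again Tcirg1, which stood on both lists. Of 19 genes of the TFEB family, mTORC1 and the Rag complex, which senses amino acids on the lysosome, 1 was higher and 1 lower on chow, and 3 were higher and 3 lower on HFD. Lamtor1, which anchors that complex, was higher on both diets (0.24 ± 0.06 (SE), adjusted p = 0.0126 on chow and 0.31 ± 0.06 (SE), adjusted p = 0.00084 on HFD). The gene lower on chow was Lamtor5 (-0.35 ± 0.11 (SE), adjusted p = 0.0356). Flcn, folliculin, was lower on HFD (-0.32 ± 0.08 (SE), adjusted p = 0.00473).

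Of 29 autophagy genes, 1 was higher and 0 lower on chow, and 4 were higher and 2 lower on HFD. Tax1bp1, an autophagy receptor (0.35 ± 0.06 (SE), adjusted p = 0.000229), and Rb1cc1, a scaffold of the initiating complex (0.34 ± 0.07 (SE), adjusted p = 0.0016), were among those higher. Atg7 was among those lower on HFD (-0.35 ± 0.12 (SE), adjusted p = 0.0345). Of 32 genes of traffic from endosome to lysosome, 4 were higher and 3 lower on chow, and 7 were higher and 3 lower on HFD. Hps4, of a complex for lysosome-related organelles, was lower on both diets, with -0.69 ± 0.10 (SE), adjusted p = 8.57e-05 on chow and -0.89 ± 0.10 (SE), adjusted p = 1.46e-06 on HFD. Vps35, of the retromer, was higher on HFD (0.34 ± 0.06 (SE), adjusted p = 0.00023). The median difference of these 5 lists lay between -0.08 and 0.05 on chow and between -0.06 and 0.04 on HFD.

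Markers of other cells and array measures were compared between the groups as well. The shares of all tested genes beside these counts were 5.6% lower and 4.14% higher on chow, and 17.1% and 10.8% on HFD. On HFD 7 of 26 tested macrophage and microglia markers were lower and 1 higher in ApoE4 mice. Their summed signal ran from 10693 to 15588 in ApoE3 and from 10628 to 15164 in ApoE4 mice on HFD, and Itgam, Tmem119 and Trem2 were Absent on all arrays. Of 12 neuron markers 4 were lower on HFD and 0 higher, with sums from 2161 to 2535 in ApoE3 and from 1355.0 to 2508 in ApoE4 mice and Camk2a and Slc32a1 Absent on all arrays. Of 7 oligodendrocyte and myelin markers 5 were lower and 1 higher, with sums from 4743 to 6066 and from 2972 to 4410.4, and Mag and Olig2 were Absent on all arrays. Of 9 astrocyte markers 1 was lower and 0 higher, with sums from 13301 to 15923 and from 12725 to 14113, and Gfap and Slc1a2 were Absent on all arrays. On chow 3 macrophage markers were lower and 2 higher, 2 neuron markers and 1 myelin marker were lower, and 0 astrocyte markers passed. The sums of the macrophage list on chow ran from 8884 to 15286 in ApoE3 and from 8526 to 14022 in ApoE4 mice, those of the neuron list from 1682 to 2212 and from 1345 to 2048, and those of the myelin list from 3056 to 4226 and from 2343 to 4006.

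Markers of vessels, blood and connective tissue were counted in the same way. Of 13 smooth muscle and pericyte markers 5 were lower on chow and 6 on HFD, with none higher and median log2 differences of -0.32 and -0.29. Their sums ran from 9064.5 to 15724 in ApoE3 and from 9055 to 10557 in ApoE4 mice on chow, and from 8122 to 11691 and from 8434 to 9954 on HFD, and Cnn1 was Absent on all arrays. Of 13 endothelium markers 2 were lower on each diet and 0 higher, with sums from 5093 to 7190 and from 5740.4 to 5963 on chow and from 4695 to 7123 and from 4501 to 6453 on HFD. Of 6 tested blood, T and NK cell markers 2 were lower on each diet, with medians of -0.62 and -0.52 and sums from 512 to 1370.0 and from 309.9 to 853 on chow and from 594 to 1335 and from 443 to 768 on HFD, and 7 others, Cd3d, Cd3e, Cd79a, Cd79b, Gzmb, Hba-a1 and Nkg7, were Absent on all arrays. Of 12 fibroblast and matrix markers 1 was higher on chow, and 2 were higher and 1 lower on HFD, with medians of 0.11 and 0.15. Their sums ran from 10807 to 21841 and from 16171 to 19387 on chow and from 12001 to 15546 and from 14324 to 18382 on HFD. The part of the vessel, blood and fibroblast markers in the results was not tested.

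With the mean of the brain marker lists (neuron, myelin, astrocyte) as a covariate, 3 of the 51 genes passed on HFD. These were Gla (0.61), Atp6v0a1 (-0.48) and Galc (-0.40), and 5.16% of all tested genes passed. Where a call was lost on HFD, the SE was larger than without the covariate. The difference was similar or larger for Ctsl (0.24 ± 0.10 (SE)), Idua (-0.44 ± 0.18 (SE)), Asah1 (0.25), Naglu (-0.31), Ctsz (0.35) and Ctsc (0.28). It was smaller in size for Arsa (-0.14), Psap (-0.23), Mcoln1 (-0.22) and Atp6v0b (-0.31). On chow 2 passed, Neu1 (-0.39) and Galc (-0.30), beside 5.33% of all tested genes. With the mean of the macrophage list as a covariate, 9 passed on HFD, 4 higher and 5 lower (7.58% and 10.6% of all tested genes), and 0 on chow. On chow the Idua difference was then -0.40 and that of Naglu -0.22, and 3.75% of all tested genes passed.

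The share of Present calls was higher on ApoE4 arrays, at 58.21% ± 1.52 (SD, n = 6) against 54.78% ± 0.574 on chow (exact permutation test, two-sided, adjusted p = 0.00722 over 10 tests) and 58.98% ± 1.15 against 55.37% ± 1.76 on HFD (exact permutation test, adjusted p = 0.0108). The hybridization controls, taken as the mean log2 signal of 18 control probe sets, were lower on ApoE4 arrays, at 11.31 ± 0.15 (SD, n = 6) against 11.65 ± 0.127 on chow (exact permutation test, adjusted p = 0.00722) and 11.26 ± 0.313 against 11.63 ± 0.092 on HFD (exact permutation test, adjusted p = 0.0216). The median signal of an array was lower in ApoE4 mice, at 152.4 ± 8.23 (SD, n = 6) against 168.4 ± 9.14 on chow (exact permutation test, adjusted p = 0.0253) and 150.6 ± 5.92 against 173.2 ± 4.55 on HFD (exact permutation test, adjusted p = 0.00722). The part of the Present share in the results was not tested. With the hybridization controls as a covariate, 1 gene was lower and 6 were higher in ApoE4 mice on chow (13.7% of the 51, where 17.0% of all tested genes passed, 9.85% lower and 7.15% higher). The lower gene was Idua (-0.63), and the higher were Ctsl (0.31), Atp6v1a (0.27), Atp6v0e (0.27), Hexa (0.25), Npc2 (0.25) and Asah1 (0.18). On HFD 7 were then higher and 5 lower (12.1% and 17.7% of all tested genes). Without the 4 arrays of lowest control signal, all from ApoE4 mice, 2 were higher and 4 lower on chow (5.46% and 7.71%). The log2 ratio of 3' to 5' Actb signal was 1.68 ± 0.202 in ApoE4 and 1.98 ± 0.242 in ApoE3 mice on chow (SD, n = 6, exact permutation test, adjusted p = 0.0649), and with the mean ratio of Actb and Gapdh as a covariate 1 gene passed on chow, Neu1, beside 8.61% of all tested genes.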

How the data were processed

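RNA of laser-captured choroid plexus was measured on 24 Affymetrix arrays. The authors deposited an intensity per probe set on a linear scale, made with GCOS 1.4 per the submitters' processing notes, and a Present, Marginal or Absent call. How the signals were computed is not stated further. After 64 controls were set aside, 20380 of 22690 probe sets named 1 gene, 691 several and 1555 none.

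Signals were taken as log2(signal + 16). Probe sets Present on at least 6 of 24 arrays were kept, and each gene was read from its brightest one. Groups came from the labels. Linear models of group means and sex were fitted with limma 3.58.1 (trend, robust) in R 4.3.3 and tested on simulated data, with two-sided p-values adjusted by Benjamini-Hochberg over 8261 genes. Array measures were compared by exact permutation in Python 3.11.15 with scipy 1.17.1. Promoters came from RefSeq.

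The genes and lists were chosen with earlier results of these data known. Values by array were given for genes that passed, at most 8 per comparison and direction, for the 3 smallest p where none passed, for the brightest and dimmest genes of each role, for pump isoforms, and where probe sets disagreed. Of pathway lists, at most 5 genes that passed were named. Alternatives changed the pseudocount, scaling, filter, terms, covariates, probe sets or arrays.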

Additional observations from a re-analysis of the deposited data

Results flagged for a closer look

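For 38 of the genes, the log2 values of each group of 6 arrays were checked for an array far from the others, measured as its gap to the nearest array as a share of the group's range. Of 152 groups 13 had such an array, and chance alone flags about 1 in 20. The values are the signal of that array, the range of the others and the gap share.

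In ApoE3 mice on chow, replicate 4 was high for Ctsb (9033, against 7169 to 7731 on the other 5, 0.673) and Grn (4349, against 3272 to 3611 on the other 5, 0.653), replicate 2 was high for Naglu (577, against 444 to 465.7 on the other 5, 0.815) and replicate 5 low for Atp6v1e2 (74.3, against 134 to 150.1 on the other 5, 0.831). In ApoE4 mice on chow, replicate 5, which had the lowest hybridization controls of that group, was low for Atp6v0a2 (550.0, against 669 to 738 on the other 5, 0.665) and Atp6v0b (1221, against 1752 to 2116 on the other 5, 0.656), and replicate 4 was low for Manba (747, against 827 to 864 on the other 5, 0.696).

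In ApoE3 mice on HFD, replicate 1 was low for Ctsz (1681, against 2207 to 2584 on the other 5, 0.632) and high for Lamp2 (7889, against 7488 to 7590.3 on the other 5, 0.739), and replicate 6 was low for Atp6v1g2 (147, against 219 to 241 on the other 5, 0.804). In ApoE4 mice on HFD, replicate 2, with the lowest hybridization controls of all 24 arrays, was low for Atp6v1a (4158, against 5428 to 5956 on the other 5, 0.742), replicate 3 was high for Lamp2 (9006, against 7059 to 7603 on the other 5, 0.695) and replicate 4 high for Smpd1 (4568, against 4026 to 4197 on the other 5, 0.671). Among these, Naglu passed on both diets, and Ctsz and Atp6v0b on HFD.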

How the results depend on the processing

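On chow 3 genes in place of 5 passed with the replicate block, where 9.67% of all tested genes passed. With only the arrays compared 1 passed (6.22% of all tested genes). As covariates, the ratio of 3' to 5' signals gave 1 (8.61%), the brain markers 2 (5.33%) and the macrophage markers 0 (3.75%). Leaving out each array in turn gave 1 to 6, with 3 without ApoE3 replicate 1 or 6, 2 without ApoE3 replicate 2, 3 without ApoE4 replicate 2, 2 without ApoE4 replicate 1 or 3, and 1 without ApoE4 replicate 4. On HFD the brain markers as a covariate gave 3 in place of 12 (5.16% of all tested genes), with a larger SE where a call was lost. Other settings gave 9 to 16 (from 18.2% to 33.6% of all tested genes), and leaving out each array gave 8 to 14. Averaged over the diets, the brain markers gave 8 in place of 18 (10.9% of all tested genes), and leaving out each array gave 15 to 19. For diet in ApoE3 mice, array weights gave 1 in place of 0, and for sex, leaving out each array gave 0 to 2. The cause of these changes was not tested. Shares of all tested genes with an array left out are not given here, so those ranges have no background beside them. Pairs of a named difference and a setting numbered 1583. Of these 1424 kept their side of the threshold and direction, 158 no longer passed, 1 newly passed and 0 changed sign. The named differences were mostly those that passed, so few of them could newly pass. Differences outside that choice did pass in some settings. With the mean of a gene's probe sets, limma called Lipa (-0.46, adjusted p = 6.55e-05) and Atp6v1d (0.25, adjusted p = 0.00286) on HFD.

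Replicate numbers are shared by all groups, and they did not pair the arrays: residuals of arrays with the same number correlated between -0.31 and 0.12, and 0 of 24 arrays correlated best with their own number. The replicate block, which takes the place of the sex term, gave 12 on HFD and 19 in the average (27.7% and 37.8% of all tested genes). Precision is limited by 6 arrays a group, and a probe set Absent on all arrays gives only a bound on its signal.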
